A study of Mus musculus with 2 samples.

Results

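The immediate early transcription factor genes of the AP-1 and Egr families were examined in skin cells of mice sorted by the zinc importer ZIP10. They comprise Fos, Fosb, Fosl1, Fosl2, Jun, Junb, Jund, Egr1, Atf3 and Ier2, 10 of the 23233 genes in the deposited table. These genes were picked by symbol for their early response to stimulation and to tissue dissociation, and all 10 were found. Cells came from minced, enzyme-digested ventral skin of 7-day-old C57BL/6 mice that carried no stated allele and received no stated treatment. The suspension was labelled with rabbit polyclonal anti-ZIP10 and a fluorescent second antibody and flow sorted on that signal, and 1 RNA library was made from the positive cells and 1 from the negative cells, called here the positive and the negative library. The labels state neither the number of animals nor any pooling, and titles call these hair follicle cells although the suspension was of ventral skin. About 2.77e+06 and 2.71e+06 reads are estimated to lie behind the positive and negative libraries, in which 14342 and 13558 genes were above 0. With 1 library per group there is no replicate and no test, so every difference describes these libraries and errors cover read counting alone.

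Immediate early genes are switched on within minutes of a growth factor, stress or wounding signal, without new protein synthesis, and their RNAs decay quickly. Fos and Jun proteins pair through leucine zippers to form AP-1, which binds DNA to activate or repress genes of growth, stress and, in epidermis, keratinocyte differentiation. Egr1 is a zinc finger factor, Atf3 a stress-induced relative of the Fos and Jun proteins, and Ier2 a small nuclear protein induced together with them. Enzymatic dissociation of a tissue also induces these genes, so their levels in sorted cells can hold a part made after the tissue was taken. No undissociated sample was compared here, and that part was not tested.

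Promoters are shown for Fos, the gene that gives the family its name, for Jun, its classical partner, and for Fosb and Atf3, which lay at opposite ends of the members in ratio. The sequences run from 250 bases before to 50 bases after the annotated start and are credited to RefSeq on GRCm38.p6. They were matched to the members by symbol and also filtered by chromosome. This left a window for 7 of the 10 genes and none for Fosl1, Egr1 and Ier2. Their coordinates are on another build than the mm9 named for the expression values. Capitals mark a motif match on either strand. The core of the cAMP response element, bound by CREB and ATF factors, was searched as TGACGT. The AP-1 site itself was searched as TGACTCA, and a variant of it known from the promoter of Jun was searched as TGACATCA. The site of the Egr factors was searched as GCGTGGGCG, and the TATA box, which places the start of transcription, as TATAAA.
Fos (chr12:85473640-85473939, plus strand): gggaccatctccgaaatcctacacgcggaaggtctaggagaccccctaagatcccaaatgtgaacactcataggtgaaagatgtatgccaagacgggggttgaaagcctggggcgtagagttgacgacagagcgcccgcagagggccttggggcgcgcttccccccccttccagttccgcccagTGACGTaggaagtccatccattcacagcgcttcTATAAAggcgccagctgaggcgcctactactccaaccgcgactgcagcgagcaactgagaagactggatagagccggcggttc
Jun (chr4:95052173-95052472, minus strand): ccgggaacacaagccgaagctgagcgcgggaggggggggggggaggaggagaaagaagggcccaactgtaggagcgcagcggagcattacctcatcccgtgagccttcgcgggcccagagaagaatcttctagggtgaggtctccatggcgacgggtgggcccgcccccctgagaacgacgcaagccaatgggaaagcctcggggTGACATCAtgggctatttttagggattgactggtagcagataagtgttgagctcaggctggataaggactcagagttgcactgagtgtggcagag
Fosb (chr7:19309996-19310295, minus strand): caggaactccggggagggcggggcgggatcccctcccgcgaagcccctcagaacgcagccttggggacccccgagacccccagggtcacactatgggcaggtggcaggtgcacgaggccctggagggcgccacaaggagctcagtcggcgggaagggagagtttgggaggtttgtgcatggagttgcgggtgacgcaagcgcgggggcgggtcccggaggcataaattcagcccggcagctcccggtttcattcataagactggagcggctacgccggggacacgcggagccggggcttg
Atf3 (chr1:191183284-191183583, minus strand): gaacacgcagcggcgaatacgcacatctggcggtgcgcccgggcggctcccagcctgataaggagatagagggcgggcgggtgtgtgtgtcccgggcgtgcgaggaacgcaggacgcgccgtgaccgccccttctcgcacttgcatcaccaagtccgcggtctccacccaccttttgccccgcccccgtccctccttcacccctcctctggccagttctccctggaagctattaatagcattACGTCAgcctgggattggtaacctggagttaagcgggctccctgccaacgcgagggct
In the Fos window TGACGT began 66 bases and TATAAA 33 bases before the start. The Jun window held TGACATCA 45 bases before the start. The Atf3 window held TGACGT on the reverse strand, read as ACGTCA, 8 bases before the start, and the Fosb window held none of these letters. Of the windows not shown, that of Junb held TATAAA at the start itself and no other motif. The windows of Fosl2 and Jund held none of these letters, and TGACTCA and GCGTGGGCG were in none of the 7 windows. Among 32851 RefSeq windows of the same length, 7.51% held TGACGT, 5.202% TGACTCA, 3.62% TGACATCA, 0.612% GCGTGGGCG and 13.6% TATAAA. The TGACGT count includes windows with the full palindromic element, of which it is a part. The CArG box, the element bound by serum response factor, was also searched, was present in 1.63% of all windows and was in none of the 7 member windows. That absence covers these windows only. Sequence more than 250 bases before the start was not searched, and Egr1 was not among the 7 genes. A match is a description of letters and no measurement of binding.

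Most members were expressed at substantial levels in both libraries, where RPKM are reads scaled by transcript length and library size. Jund, Ier2, Junb and Fos stood highest, at 72.5, 71.4, 65.0 and 47.5 RPKM in the positive library. In the negative library the order of the same genes was Jund, Ier2, Junb and Fos as well, at 46.5, 35.2, 27.9 and 23.2 RPKM. Jun and Egr1 followed in each library, and Fosl2, Fosb and Atf3 stood lowest among the members above 0. The counting intervals of neighbouring levels were not compared, because single RPKM also depend on the annotated length.

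**Figure D1:**
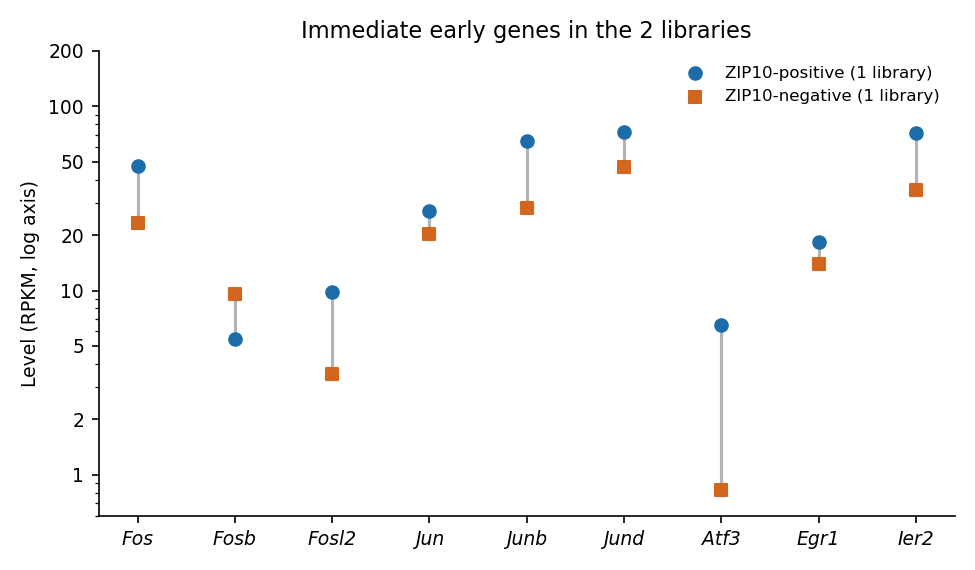
Level of each immediate early gene in RPKM on a log axis, with 1 point per library; grey lines join the values of a gene, and Fosl1, listed at 0 in each library, cannot be drawn. Fosb alone is lower in the positive library, at 5.43 against 9.58 RPKM, and Atf3 has the widest gap, at 6.49 against 0.831 RPKM.

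As deposited, 8 of the 9 members above 0 were higher in the positive library. On the scale of log2(RPKM + 1), 4 of the 9 were 2-fold or more up and none was 2-fold or more down. Of all 12249 genes that reached 1 RPKM in either library, 44.1% were 2-fold or more up and 3.55% 2-fold or more down by the same measure, so the members' share is close to that of genes in general. The members' median log2 ratio was 1.0, against 0.87 over all genes compared. By up and down are meant higher and lower levels in the positive library. The median gene, taken over the 9620 genes at 1 RPKM or more in each library, had a ratio of 1.97 without a pseudocount.

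Values were also set relative to that median gene. On this scale the members' median log2 ratio was 0.041, against 0.094 over all genes compared, with 5 of 9 members above the median gene and 4 below it. Atf3 was then the single member 2-fold or more up and Fosb the single member 2-fold or more down, where 14.7% and 11.4% of all genes were. The same 2 genes passed 2-fold under the 3 other scalings, in which the members' median was -0.30 (genes outside the 50 most abundant), -0.37 (without globin genes and Rn45s) and -0.13 (reference genes), against -0.19, -0.24 and -0.047 over all genes. The shares of all genes 2-fold above and below were then 9.7% and 17.6%, 8.99% and 19.2%, and 11.8% and 14.4%. Globin transcripts held 59.4% of all RPKM in the negative library, against 3.46% in the positive one, and their part in the general shift was not tested.

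The Fos family supplies the partners that need a Jun protein to bind DNA. Fos, the founding member, stood at 47.5 RPKM in the positive and 23.2 RPKM in the negative library. The ratio was 2.05, and the exact 95% counting interval ran from 1.64 to 2.57, at the smallest whole read numbers with this ratio, 250 and 119. Fos lay close to the median gene, with a log2 ratio relative to it of 0.055, and its sign reversed, at -0.28, when the 50 most abundant genes were left out of the scaling. Its place among all genes above 0 in the library was also nearly the same, at percentile 89.6 in the positive and 90.0 in the negative library.

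Fosb, whose product has a strongly activating long form and a stable truncated splice form, went the other way. It stood at 5.43 RPKM in the positive and 9.58 RPKM in the negative library, a ratio of 0.566. The counting interval was 0.298 to 1.04 from the fewest reads that give the ratio, 18 and 31, and 0.397 to 0.800 from the reads that its longest coding transcript of 3782 bases implies, 54 and 93. Relative to the median gene the log2 ratio was -1.57, at percentile 3.89 of all genes compared. Within the libraries Fosb stood at percentile 51.4 in the positive and 77.3 in the negative library, a comparison that needs no scaling. The splice forms cannot be separated, since the table holds 1 value per gene.

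Fosl2, which encodes Fra-2, an AP-1 subunit of keratinocytes and connective tissue, stood at 9.84 RPKM against 3.51 RPKM. Its ratio of 2.80 had an interval of 2.04 to 3.89, which lies above the ratio of the median gene, 1.97. The log2 ratio on the median-gene scale was 0.43, or 0.13 when the 50 most abundant genes were left out of the scaling, and the percentile within the library was 64.4 in the positive and 54.4 in the negative library. Fosl1, which encodes Fra-1, a subunit induced later than Fos and often high in migrating cells, was listed at 0 in each library. On its longest coding transcript 3 reads would be worth 0.649 and 0.666 RPKM, and a listed 0 in this table can also be a failed estimate. In the annotation the exons of that transcript share 1163 bases with Ccdc85b on the opposite strand, which stood at 6.42 and 1.32 RPKM, and whether counting used strand is not given in the sources used here.

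**Figure D2:**
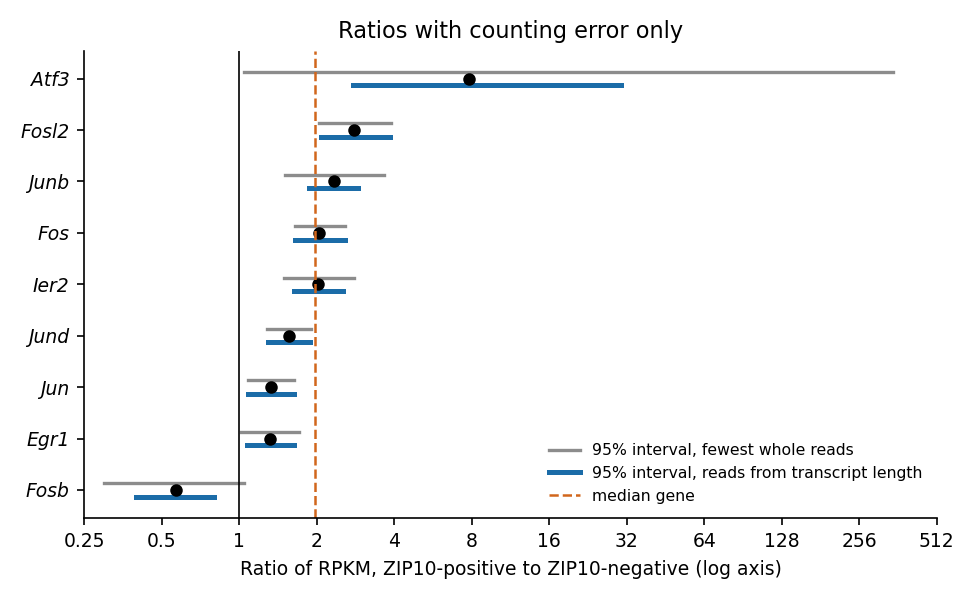
Ratio of RPKM in the positive library to the negative library on a log axis, for each gene (black points), with 95% counting intervals from the fewest whole reads (grey) and from reads implied by transcript length (blue); the solid line is a ratio of 1 and the dashed line the median gene at 1.97. Egr1, Jun and Jund lie between these lines, Fosb lies left of 1, and Atf3 has the highest ratio, 7.80, with the widest intervals.

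Jun family proteins pair with each other as well as with Fos proteins. Jun, the strongest activator among them, stood at 26.8 RPKM in the positive and 20.2 RPKM in the negative library. The ratio of 1.33 had a counting interval of 1.08 to 1.63, which lies above 1 and below the median gene. Relative to the median gene the log2 ratio was -0.55. In the annotation Jun shares 232 exonic bases with Junos, an antisense gene that has no row of that name in the table.

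Junb, which encodes a weaker activator that can counter Jun, stood at 65.0 RPKM against 27.9 RPKM. The ratio of 2.33 had an interval of 1.51 to 3.67, which takes in the median gene, and the log2 ratio relative to it was 0.24, reversing to -0.11 when the 50 most abundant genes were left out of the scaling. Junb overlaps Prdx2 on the opposite strand, which stood at 449 and 212 RPKM, but its longest coding transcript shares 0 exonic bases with that gene.

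Jund, the Jun gene most steadily expressed in resting cells, stood at 72.5 RPKM against 46.5 RPKM. Its ratio of 1.56 had an interval of 1.28 to 1.90, just below the median gene, and its log2 ratio on the median-gene scale was -0.33. Of its longest coding transcript 877 bases are shared with the antisense gene Gm11175, which has no row of that name in the table, so its value is uncertain to that extent.

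AP-1 genes were also compared by their shares within each library, which no scaling between libraries can change. The 7 Fos and Jun family genes summed to 227 RPKM in the positive and 131 RPKM in the negative library. The Fos family made up 27.6% ± 1.5 (counting SE) of that sum in the positive and 27.7% ± 2.0 (counting SE) in the negative library. The shares of the families thus differed by less than their counting error. Within the Fos family, Fos supplied 20.9% of the whole sum in the positive and 17.7% in the negative library. Fosb supplied 2.39% ± 0.56 and 7.32% ± 1.27 (counting SE), and Fosl2 4.33% ± 0.38 and 2.68% ± 0.38 (counting SE). Within the Jun family Junb supplied 28.6% ± 2.5 against 21.3% ± 3.1, Jun 11.8% ± 0.85 against 15.5% ± 1.3, and Jund 31.9% ± 1.8 against 35.5% ± 2.4, with the counting SE after each. All these SE rest on the fewest whole reads, such as 74 and 31 for Junb and 18 and 31 for Fosb. Those reads are a lower limit, so the SE are too wide where the true reads are more.

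**Figure D3:**
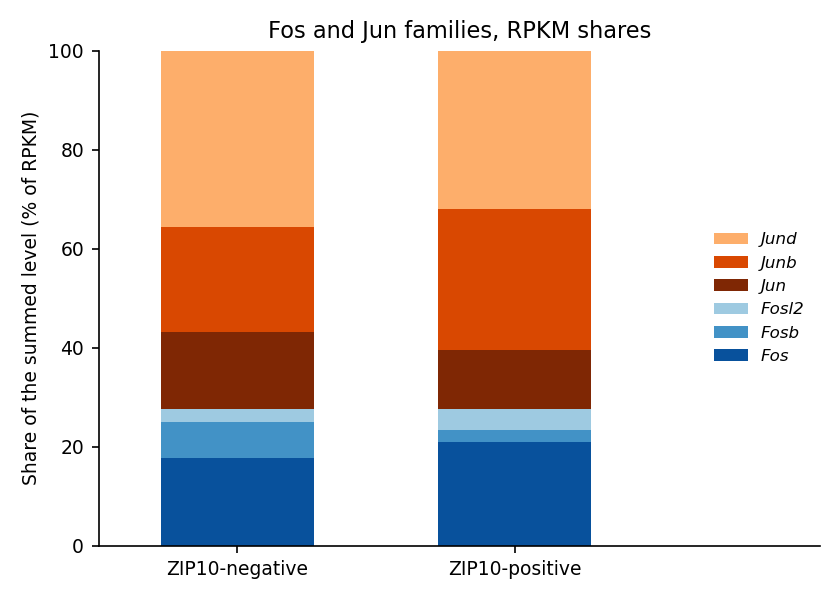
Share of each Fos family gene (blue shades) and Jun family gene (orange and brown shades) in the summed RPKM of the 7 genes, with 1 bar per library. The boundary between the families lies at 27.7% in the negative and 27.6% in the positive library, while the Fosb band narrows from 7.32% to 2.39%; Fosl1 is listed at 0 and has no band.

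Each member was also set over Fos in the same library, which needs no scaling. Fosb stood at 0.413 times the level of Fos in the negative and 0.114 times in the positive library, so this quotient was 0.276 times as large in the positive library, with an exact 95% counting interval of 0.140 to 0.535. For Jun the corresponding value was 0.647 (0.475 to 0.881) and for Egr1 0.642 (0.455 to 0.906), both with intervals below 1. The intervals of Jund (0.562 to 1.03), Ier2 (0.672 to 1.46), Junb (0.694 to 1.89) and Fosl2 (0.921 to 2.04) took in 1. For Atf3 the value was 3.81, with an interval of 0.50 to 170 from the fewest reads and 1.30 to 15.1 from reads implied by transcript length.

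Egr1, a factor of growth and wound responses, stood at 18.4 RPKM in the positive and 13.99 RPKM in the negative library. The ratio was 1.32, with an interval of 1.02 to 1.70, and the log2 ratio on the median-gene scale was -0.55. Its percentile within the library was 76.8 in the positive and 83.7 in the negative library. Of its relatives, Egr2 stood at 13.9 against 12.0 RPKM and Egr3 at 15.4 against 7.59 RPKM, and Egr4 was listed at 0 in each library. Relative to the median gene, the log2 ratio was -0.71 for Egr2 and 0.038 for Egr3, and that of Egr3 was below 0 under the other scalings.

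Atf3 had the highest ratio among the members above 0, and the lowest level of them in the negative library. It stood at 6.49 RPKM in the positive and 0.831 RPKM in the negative library, a ratio of 7.80. The fewest reads that give this ratio are 8 and 1, with an interval of 1.05 to 346, while its longest coding transcript of 1984 bases implies 32 and 4 reads and an interval of 2.77 to 30.4. Relative to the median gene the log2 ratio was 1.38, at percentile 92.1 of all genes compared, and it lay between 1.09 and 1.26 under the other scalings. With a pseudocount of 5 the log2 ratio as deposited was 0.98, just short of 2-fold. Within the libraries Atf3 stood at percentile 55.6 in the positive and 21.9 in the negative library.

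Ier2 stood at 71.4 RPKM in the positive and 35.2 RPKM in the negative library. The ratio of 2.03, with an interval of 1.49 to 2.78, and the log2 ratio on the median-gene scale of 0.041 placed it beside Fos. Its sign also reversed under the 3 other scalings, at -0.30 without the 50 most abundant genes, -0.37 without globin genes and Rn45s and -0.13 with reference genes. Fos and Ier2 fell on opposite sides of the 2-fold line by a hair, at log2 ratios of 1.0043 and 0.99997 as deposited, so a count of members past that line can shift by 1 with either gene.

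**Figure D4:**
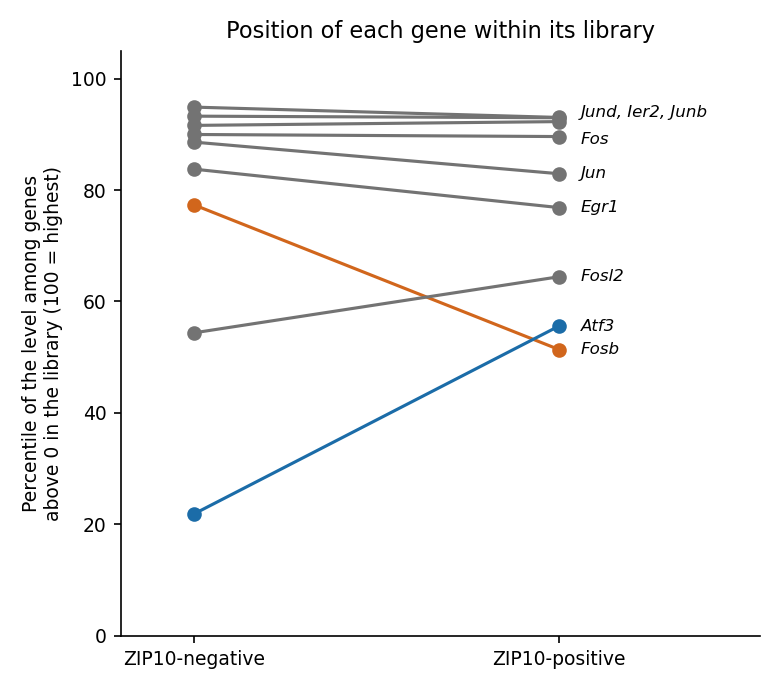
Percentile of each gene's RPKM among all genes above 0 in its library, from the negative (left) to the positive library (right), where 100 is the highest level. Fos, Junb, Jund and Ier2 stay near the top in each library, while Atf3 (blue) goes from 21.9 to 55.6 and Fosb (orange) from 77.3 to 51.4.

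Counts of each list and marker set below are to be set beside the shares of all genes compared. As deposited 44.1% of all genes were 2-fold or more up and 3.55% down. On the median-gene scale 14.7% were up and 11.4% down. Other immediate early genes, 38 in a list written from general knowledge, gave 33 genes that reached 1 RPKM in either library. Of these 19 were 2-fold or more up with none down as deposited, and 3 were up with 3 down on the median-gene scale. Their median log2 ratio on the median-gene scale was 0.30, or -0.042 when the 50 most abundant genes were left out of the scaling. The most abundant were the helix-loop-helix inhibitors Id3, Id1 and Id2, at 193, 67.6 and 60.5 RPKM in the positive library. In the negative library Id3, Id1 and Id2 stood at 53.6, 19.3 and 34.1 RPKM. Nr4a1, an orphan nuclear receptor induced together with Fos, stood at 16.7 against 1.78 RPKM. Its ratio of 9.40 had an interval of 5.05 to 19.4, and on the median-gene scale its log2 ratio was 1.88.

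The 3 genes of this list 2-fold or more up on the median-gene scale were Nr4a1, the stress gene Gadd45b and Csrnp1. Gadd45b stood at 26.4 against 3.47 RPKM and Csrnp1 at 7.49 against 0.822 RPKM. The 3 lower ones were Gadd45a at 7.75 against 13.7 RPKM, the cytokine signalling inhibitor Socs3 at 22.4 against 28.9 RPKM, and Zfp36 at 26.0 against 27.6 RPKM. Zfp36 encodes tristetraprolin, which speeds the decay of AU-rich messengers. Gadd45b, Csrnp1, Gadd45a and Socs3 were named after their values were seen.

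Other bZIP genes of the AP-1, CREB/ATF, Maf and C/EBP families lay lower. Of 29 genes compared, 7 were 2-fold or more up with 1 down as deposited, and 1 was up with 4 down on the median-gene scale. Their median on the median-gene scale was -0.38. The gene up was Creb3, at 25.8 against 5.61 RPKM, and it was short of 2-fold under the other scalings. Those down were Nfe2l1 at 11.5 against 22.3 RPKM, Ddit3, a gene of endoplasmic reticulum stress, at 6.46 against 9.94 RPKM, Crem at 1.36 against 2.26 RPKM and Batf, a lymphocyte AP-1 partner, at 1.54 against 4.21 RPKM. Batf was also the gene down as deposited, and these 5 were named after their values were seen. Cebpa and Cebpb, which encode C/EBP factors of differentiating epithelial and myeloid cells, stood at 296 and 146 RPKM against 217 and 47.6 RPKM. Atf5 stood at 57.8 against 48.4 RPKM, and Xbp1, a factor of the unfolded protein response, at 55.6 against 38.3 RPKM. Cebpa, Atf5 and Xbp1 lay below the median gene and Cebpb above it.

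Upstream kinases and factors that induce Fos and Egr1 lay around the median gene. Of 35 compared, 13 were 2-fold or more up with 1 down as deposited, and 1 was up with 4 down on the median-gene scale, with a median of 0.053. Mapk3, a kinase at the end of the growth factor cascade, stood at 63.4 against 38.3 RPKM. Hras1 stood at 99.6 against 39.0 RPKM, and Map2k2, which encodes a MAP kinase kinase, at 54.6 against 14.1 RPKM. On the median-gene scale the gene up was the stress kinase gene Mapk13, at 30.03 against 4.98 RPKM. Those down were Egfr, the epidermal growth factor receptor gene, at 4.41 against 12.04 RPKM, Map2k3 at 24.9 against 30.8 RPKM, Map2k6 at 3.28 against 5.34 RPKM and Mapk12 at 1.065 against 2.62 RPKM. Egfr was also the gene down as deposited, and these 5 were named after their values were seen.

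Among feedback inhibitors of this pathway 6 of 23 were 2-fold or more up with none down as deposited, and 1 was up with 1 down on the median-gene scale. Dusp1, a phosphatase induced together with Fos that switches off MAP kinases, stood at 45.3 against 23.1 RPKM and lay on the median gene, at -0.0077. Spry1 and Spred1, inhibitors of Ras signalling, stood at 65.3 and 22.8 RPKM against 49.0 and 8.83 RPKM. Dusp2, a nuclear MAP kinase phosphatase of leukocytes, was the higher one, at 11.7 against 2.60 RPKM, and was named after its value was seen. It was short of 2-fold under each of the other scalings. Zfp36, also in this list, was the lower one.

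Heat shock genes, which dissociation also induces, gave 9 of 17 2-fold or more up with none down as deposited. Relative to the median gene 1 was up with 1 down, with a median of 0.080. Hspa8, a constitutive chaperone, stood at 837 against 293 RPKM and Hsp90ab1 at 506 against 407 RPKM. The mitochondrial co-chaperone Hspe1 was the higher one, at 222 against 46.4 RPKM, and the polyubiquitin gene Ubb the lower one, at 1545 against 2828 RPKM. Hspe1 was short of 2-fold when the scaling left out either the 50 most abundant genes or globin genes and Rn45s, at 0.92 and 0.86. The inducible genes Hspa1a and Hspa1b stood at 15.1 and 19.1 RPKM against 8.21 and 15.2 RPKM, and lay below the median gene, at -0.088 and -0.62. Hspa1a and Hspa1b are near-identical and can share reads, so the division between them is uncertain.

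Known targets of AP-1 and Egr1 in skin gave 15 of 25 genes that reached 1 RPKM in either library. Of these 8 were 2-fold or more up with none down as deposited, and 3 were up with none down on the median-gene scale, with a median of 0.20. The most abundant were Ccnd1, cyclin D1, at 64.9 against 40.3 RPKM, and Cd44, a hyaluronan receptor, at 61.4 against 30.0 RPKM. Fst, follistatin, stood at 60.9 against 35.6 RPKM, and Cdkn1a, the cell cycle inhibitor p21, at 60.6 against 19.3 RPKM. The 3 higher genes were Plaur at 13.6 against 0.927 RPKM, Mmp9 at 6.48 against 0.502 RPKM and F3, tissue factor, at 4.51 against 0.661 RPKM, and they were named after their values were seen. F3 was short of 2-fold under the same pair of scalings, at 0.91 and 0.87. Plaur, the urokinase receptor, and Mmp9, a gelatinase, are also expressed by myeloid cells.

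Regulators of mRNA decay, including Zfp36, had 3 of 17 2-fold or more up with none down as deposited, and none up with 2 down on the median-gene scale, with a median of -0.34. Those up were Btg1, Btg2 and Elavl1, at 54.3, 18.2 and 32.9 RPKM against 18.1, 6.78 and 10.7 RPKM, and those down were Zfp36 and Cnot1, the latter at 3.93 against 4.91 RPKM. Among the most abundant, Zfp36l2, a relative of Zfp36, stood at 48.7 against 33.6 RPKM, Khsrp at 46.2 against 34.9 RPKM and Zfp36l1 at 35.9 against 18.4 RPKM. Btg2, Elavl1 and Cnot1 were named after their values were seen. Among 6 Klf early response genes 2, Klf6 and Klf10, were 2-fold or more up as deposited and none was 2-fold apart on the median-gene scale. Klf6 stood at 24.97 against 10.2 RPKM, Klf10 at 13.1 against 4.41 RPKM, Klf5 at 12.99 against 7.75 RPKM and Klf4, a factor of the epidermal barrier, at 10.6 against 8.17 RPKM. Srf, Creb1, Maff, Zfp36, Zfp36l1, Zfp36l2, Btg1, Btg2 and Tob1 belong to 2 or more of these lists, which are therefore not independent.

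The counts of these lists moved with the scaling. In what follows the scaling leaves out the 50 most abundant genes, then globin genes and Rn45s, and last uses the reference genes. Of all genes compared, 9.7%, 8.99% and 11.8% were up in this order, and 17.6%, 19.2% and 14.4% were down. Feedback inhibitors had none up and 5 of 23 down under each of these scalings. Regulators of mRNA decay had none up, with 5, 5 and 3 of 17 down. Other bZIP genes had none up, with 6, 7 and 4 of 29 down. Upstream kinases and factors had 1 up each time, with 4, 9 and 4 of 35 down. Other immediate early genes had 3 up each time, with 6, 6 and 4 of 33 down. Heat shock genes had 0, 0 and 1 of 17 up, with 2, 4 and 1 down. The AP-1 and Egr1 targets had 2, 2 and 3 of 15 up, with 1 down each time, and the Klf genes none up, with 1 of 6 down each time.

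**Figure D5:**
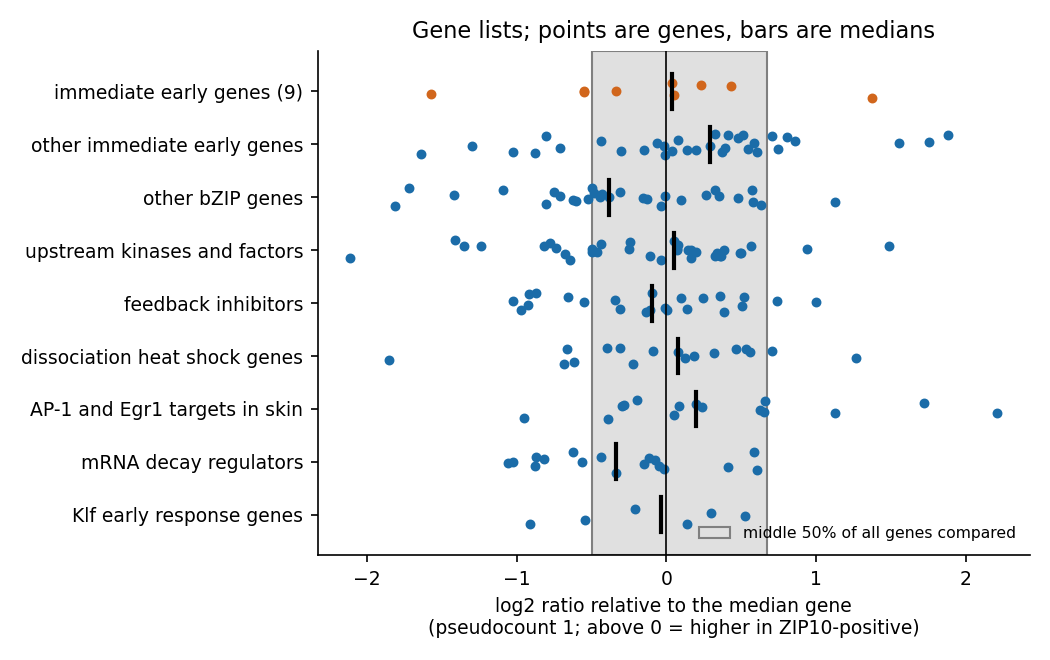
log2 ratio of RPKM + 1 relative to the median gene, with 1 point per gene and list and a black bar at each list's median; the grey band holds the middle 50% of all genes compared, from -0.50 to 0.68, and vertical scatter within a row carries no meaning. Every list median lies inside the band, and of the 9 immediate early genes (orange) Fosb, Jun and Egr1 lie left of it and Atf3 lies right of it.

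Markers of some cell types differed widely between the libraries, while the fibroblast sum as deposited hardly differed. Slc39a10, which encodes ZIP10, stood at 49.4 against 11.1 RPKM, which is the direction of the labels and no finding. Counts of markers 2-fold or more up or down are given as deposited and then on the median-gene scale. Keratinocyte markers were above 0 in each library in 14 of 14 genes and summed to 3661 RPKM in the positive and 1375 RPKM in the negative library, with 9 up and 1 down as deposited but 3 up and 1 down on the median-gene scale. Macrophage markers summed to 1186 against 51.2 RPKM, with 13 and 11 of 13 compared up. None of the 15 macrophage markers in the table was at 0 in the positive library, and 8, among them Lyz2, Mrc1 and C1qa, were at 0 in the negative one. Here and for the markers below, a listed 0 can also be a failed estimate, and the sums include such values. Neutrophil markers summed to 1685 against 16.3 RPKM, with 9 of 9 compared up on each scale. Of the 11 neutrophil markers 8 were at 0 in the negative library, S100a9 among them, and 2 of these, Elane and Mpo, were at 0 in the positive library too. Mast cell markers summed to 386 against 37.0 RPKM, with 7 and 6 of 8 compared up, and 3 of 10 at 0 in the negative library, of which Tpsab1 was at 0 in both. T cell markers summed to 145 against 790 RPKM, with 8 and 9 of 9 down and none at 0. Erythroid markers summed to 16378 against 283756 RPKM, with 7 and 8 of 8 down and none at 0. Fibroblast markers summed to 1284 against 1231 RPKM, with 3 of 11 up and none down as deposited but 2 up and 4 down on the median-gene scale, and none at 0. The part of these cells in the values of Atf3, Fosb, Nr4a1 and the other genes above was not tested, and in such pools a change in cell numbers and a change in RNA per cell cannot be told apart.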

How the data were processed

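RNA was measured in 2 sorted populations, ZIP10-positive and ZIP10-negative, with 1 library each. The authors deposited RPKM, 1 value per gene symbol and library. Trimming with cutadapt, TopHat alignment, Cufflinks and the build mm9 are named in the submitters' processing notes, whose order, settings and strand use are not given here. Per the labels' protocols, reads were single and 50 bases long.

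Genes that reached 1 RPKM in either library were compared as log2((positive + 1)/(negative + 1)), which understates low genes. Relative values divide the median log2 ratio of genes at 1 RPKM or more in each library evenly between the libraries. Calls are by size, 2-fold or more. Read numbers were recovered from whole-number ratios, which 63.8% of 1389 low genes showed with whole numbers up to 20, within the rounding of the deposited values, at a depth ratio of 1.03. Of 303 genes with 1 annotated transcript, 27.1% lay at the most frequent depth, which gave about 2.77e+06 and 2.71e+06 reads with an assumed length offset of 199 bases. The fewest whole reads that give a ratio are a lower limit, and large pairs can match by chance, so reads implied by the longest coding GENCODE vM21 transcript are given for Fosb and Atf3, and for all members in the plot of ratios. Intervals are exact binomial at 95% and cover counting error only; reads carry no molecular identifiers.

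Members and lists were chosen with earlier results of these data known. Named are all members, Slc39a10, the 4 most abundant genes of each list, and Egr2, Egr3, Egr4, Nr4a1, Dusp1, Hspa1a, Hspa1b and Zfp36, with exceptions marked and 1 gene of a list not reported here. No gene of most similar pattern is named, since 2 libraries give each gene a single ratio. A list of 15 broadly expressed reference genes served for scaling, the most abundant being Actb, Ppia, Rplp0 and Rpl13a: as deposited 10 passed 2-fold upward with none downward, and on the median-gene scale 3 upward with 1 downward. The endothelial and melanocyte marker lists had 1 of 4 and 0 of 7 genes past 2-fold upward as deposited, with none downward. On the median-gene scale none of either list was upward, and 0 and 2 were downward. These lists summed to 17.5 and 287 RPKM in ZIP10-positive against 11.2 and 204 RPKM in ZIP10-negative cells. Computation used scipy 1.17.1, numpy 2.4.6 and pandas 2.3.3 under Python 3.11.15. On simulated reads for this comparison with 200 of 23233 genes changed 4-fold, 198 were recovered. Both simulated libraries were drawn from the levels of the negative library, without a general shift between them. Neither low genes nor the most abundant genes were among those changed. The recovery therefore checks the calculation alone and cannot speak to calls of low genes or to calls that depend on the scaling.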

Additional observations from a re-analysis of the deposited data

How the results depend on the processing

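Scaling decides most calls. The members' median log2 ratio of 1.0 became 0.041 relative to the median gene, -0.13 with scaling to broadly expressed reference genes, -0.30 when the 50 most abundant genes were left out of the scaling, and -0.37 with globin genes and Rn45s left out. Under each of these 4 scalings 1 member was 2-fold higher (Atf3) and 1 lower (Fosb). With a pseudocount of 5 as deposited 1 was higher, Junb at 1.09, and none lower, while Atf3 was at 0.98. Over all genes 5405 were higher and 435 lower as deposited. These counts became 1799 and 1398 relative to the median gene, 1442 and 1758 with reference genes, 1188 and 2151 without the top 50, and 1101 and 2352 once globin genes and Rn45s were dropped. A pseudocount of 5 gave 2782 and 104, a pseudocount of 0.1 gave 679 lower, and a minimum of 5 RPKM gave 168 lower. Under the top-50, globin and reference scalings in turn, Fos turned to -0.28, -0.35 and -0.11 and Cd44 to -0.29, -0.35 and -0.12. In the order of the former pair, Junb turned to -0.11 and -0.17, Actb to -0.16 and -0.23, and Klf6 to -0.032 and -0.095. Without globin genes and Rn45s Hras1 turned to -0.042 and Spred1 to -0.027. Leaving out Jund, the highest gene, the Fos family share became 40.6% in ZIP10-positive and 43.0% in ZIP10-negative cells. The cause of these changes was not tested beyond the scaling itself. The alternatives for read numbers, and a median over members above 0, were chosen after seeing the data; a tolerance 3 times wider gave the same read pairs for the 9 members above 0. No paired analysis was possible because each group has 1 library, and no replicate could be left out. Depth limits Atf3, with 4 reads implied in ZIP10-negative cells, and Plaur and F3, each with 1 as the fewest reads there. Other named genes may be limited too. In ZIP10-negative cells the fewest reads were 3 for Csrnp1 and 4 for Mmp9. In ZIP10-positive cells they were 3 for Batf, 2 for Ddit3 and 5 for Mapk12. Such a number comes from the ratio in lowest terms, so it is a lower limit and no measure of depth. Zfp36l1, at 35.9 RPKM in ZIP10-positive cells, also has only 2 and 1 as its fewest reads. At the fewest reads the intervals of Batf (0.063 to 1.52), Ddit3 (0.054 to 5.68) and Mapk12 (0.11 to 1.24) took in 1. So did those of F3 (0.88 to 308), Gadd45a (0.24 to 1.25), Map2k3 (0.50 to 1.31), Map2k6 (0.31 to 1.17) and Zfp36 (0.72 to 1.23). All of these were 2-fold apart on the median-gene scale. Among list genes named as 2-fold apart on that scale, the intervals of Ddit3, F3 and Dusp2 (1.67 to 15.1) took in the median gene, at 1.97. Intervals at the fewest reads are too wide where the true reads are more.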
